A study of Mus musculus with 12 samples.

Results

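The genes described here are 31 genes of cholesterol biosynthesis and of its control by SREBP2, taken by gene symbol from the deposited table of 27503 genes. All 31 were found and all 31 were among the 17590 genes that passed the filter on low counts. They comprise 20 enzymes that turn acetyl-CoA into sterols, 7 genes of the machinery that senses sterols and activates SREBP proteins, and 4 genes that move sterols or limit their uptake. B16F10 is a mouse melanoma line that can be transplanted, and its RNA was sequenced here in 12 libraries of 4 groups of 3. The groups were IRF7-C435A cells with IFNα, IRF7-C435A cells under the control treatment, wild-type cells with IFNα and wild-type cells under the control treatment. IRF7 is a transcription factor of the type I interferon response, C435A replaces a cysteine of it with alanine, and IFNα is a type I interferon. The dose and time of IFNα, the way the C435A line was made and the number of clones are not stated in the labels. No label says that replicates came from separate cultures, and p-values therefore cover only the variation among these 12 libraries, which could be technical.

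Cells build cholesterol from acetyl-CoA by way of mevalonate, isoprenoid diphosphates, squalene and lanosterol, and the isoprenoids also feed protein prenylation and dolichol. When sterols are scarce in the endoplasmic reticulum, the escort protein Scap carries the precursor of SREBP2, encoded by Srebf2, to the Golgi, where the proteases of Mbtps1 and Mbtps2 release the active transcription factor. Insig proteins hold Scap back when sterols are plentiful, and the gene of Insig1 is itself a SREBP target. In macrophages, type I interferon signaling is known to lower sterol synthesis.

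SREBP2 is known to act at promoters together with the factors NF-Y and Sp1, so the promoters of the enzymes whose values differed between the lines with the smallest p-values are shown. The RefSeq table of promoters (mouse build GRCm38.p6, 250 bases before to 50 after each start) matched 26 of the 31 members, and Abcg1, Fdft1, Fdps, Sqle and Stard4 were not matched. Capitals mark TCACNCCAC, a form of the sterol regulatory element, and CCAAT, the NF-Y motif, which reads ATTGG on the other strand. The windows are chr13:8885356-8885655 on the plus strand for Idi1, chr13:119690101-119690400 on the plus strand for Hmgcs1 and chr8:64733529-64733828 on the minus strand for Msmo1.
Idi1: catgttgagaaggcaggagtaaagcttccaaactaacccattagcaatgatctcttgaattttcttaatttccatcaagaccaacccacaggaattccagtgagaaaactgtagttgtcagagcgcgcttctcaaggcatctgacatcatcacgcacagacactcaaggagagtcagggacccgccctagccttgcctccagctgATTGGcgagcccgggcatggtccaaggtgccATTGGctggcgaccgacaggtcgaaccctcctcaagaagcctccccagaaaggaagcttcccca
Hmgcs1: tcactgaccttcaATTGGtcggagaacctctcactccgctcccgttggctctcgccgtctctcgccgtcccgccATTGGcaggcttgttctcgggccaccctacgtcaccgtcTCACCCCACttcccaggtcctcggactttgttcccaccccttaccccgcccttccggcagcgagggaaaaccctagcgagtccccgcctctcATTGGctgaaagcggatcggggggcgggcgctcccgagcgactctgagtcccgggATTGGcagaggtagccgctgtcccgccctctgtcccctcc
Msmo1: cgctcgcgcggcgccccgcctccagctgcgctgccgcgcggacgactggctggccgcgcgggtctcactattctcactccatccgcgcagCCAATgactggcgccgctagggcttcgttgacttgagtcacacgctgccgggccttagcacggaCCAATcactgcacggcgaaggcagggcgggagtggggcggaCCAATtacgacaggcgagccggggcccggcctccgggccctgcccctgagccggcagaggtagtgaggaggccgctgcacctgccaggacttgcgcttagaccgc
The Hmgcs1 window held TCACNCCAC at position -137 from the start, and it was the single member of 26 with that motif. No other form of the sterol regulatory element was searched, so the count does not show that other members lack one. Of all 32851 promoters in the table, 1.24% held it on either strand. CCAAT stood 2 times in the Idi1 window, 4 times in that of Hmgcs1 and 3 times in that of Msmo1. On either strand, CCAAT was found at 21 of the 26 matched members and at 16 of the 17 matched enzymes, against 37.4% of all promoters and 41.1% of all genes in the table. GGGCGG, an Sp1 motif, was found at 23 of the 26 members, against 38.2% of all genes. The shares over all 27025 genes of the promoter table include genes that did not pass the filter on low counts, which all members passed. Shares among the tested genes alone were not computed. Some members have several promoters in the table, and a gene counts here where any of them held the motif. These matches describe letters in the windows and show no binding.

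The libraries held 60511573 to 75927461 counts. The 3 C435A controls and C435A IFNα replicate 3 had 60511573 to 63898023, and the other 8 libraries had at least 71529862. The 7 melanocyte markers were present in all 12 libraries. Genes of lung epithelium, 9 in all, summed to 44.8 to 68.2 CPM (counts scaled for library size) in 8 libraries and to 0.833 to 1.06 in the other 4, which were C435A IFNα replicates 1 and 2 and wild-type controls 2 and 3. In those 4 libraries 6 or 7 of the 9 lung genes were at 0. Endothelial markers summed to 2.76 to 7.61 CPM in the 8 libraries with lung transcripts and to 0.0548 to 0.151 CPM in the other 4, while the 6 leukocyte markers spanned 51.4 to 112 CPM and the 4 fibroblast markers 26.9 to 70.2 CPM over all libraries. Lung transcripts were present in 4 of 6 libraries of each line. Within the C435A line they were present in 1 of 3 IFNα libraries and 3 of 3 controls, and within the wild type in 3 of 3 IFNα libraries and 1 of 3 controls. Irf7 itself stood at 4.63, 4.69 and 7.23 FPKM in C435A IFNα libraries and 4.99, 4.44 and 5.20 in C435A controls, against 8.84, 9.87 and 8.45 in wild-type IFNα libraries and 11.6, 12.8 and 12.5 in wild-type controls. All 6 C435A libraries were below all 6 wild-type libraries, and a gene-level count does not show which codon they carry.

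FPKM, the level scaled for transcript length and library size, ordered the members over a wide range. In wild-type controls Fdps, the synthase of farnesyl diphosphate, was the highest member at 173 ± 9.24 FPKM (SD, n = 3) and lay at the 97.7th percentile of the genes tested by its mean over all libraries. Ebp, a sterol isomerase, followed at 37.4 FPKM, then Mvd, Acat2, Pmvk and Mvk of the mevalonate arm at 29.2, 26.7, 24.2 and 22.5 FPKM. The SREBP2 gene Srebf2 stood at 16.9 FPKM and Scap at 14.7 FPKM. The exporters Abca1 and Abcg1, which carry cholesterol out of the cell and are targets of the sterol receptor LXR, were the lowest at 0.304 and 0.116 FPKM. Sqle, Insig1, Insig2, Idi1 and Srebf1 lay between 7.00 and 7.88 FPKM, and each of these overlapped the next in its library values. Across all 12 libraries the highest value of a member was 1.32 times the lowest for Fdps and 3.5 times for Hmgcs1, with the other members in between.

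**Figure D1:**
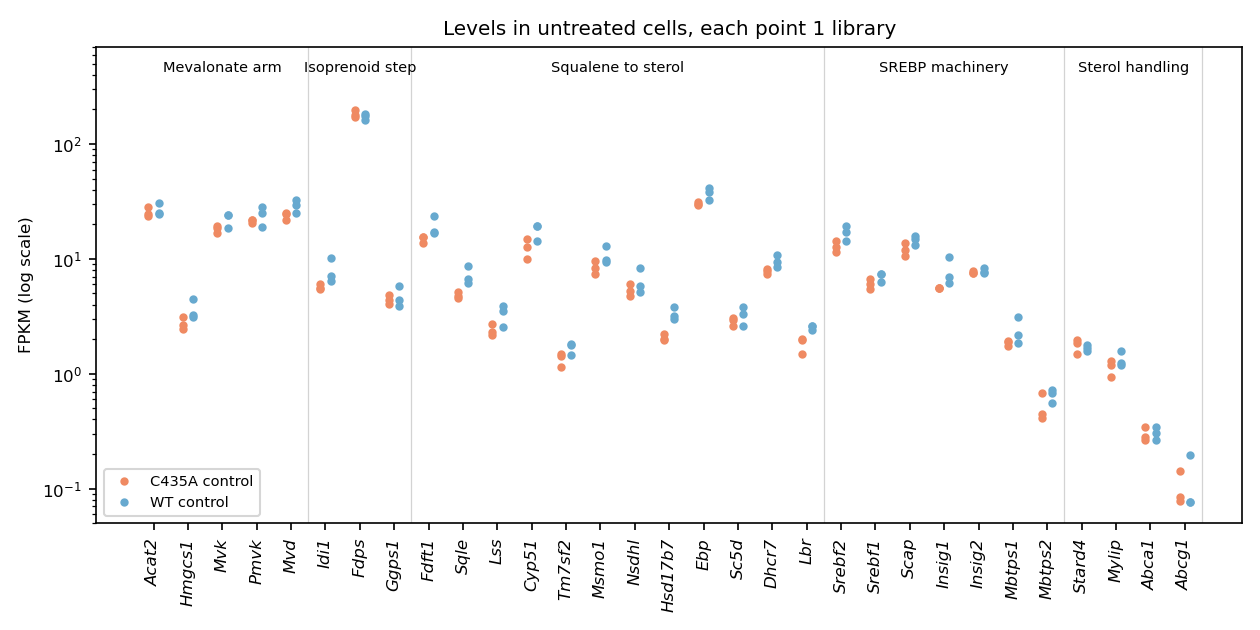
FPKM on a log scale for the 31 genes in untreated cells, with each point 1 library, C435A controls left of wild-type controls, and genes grouped by pathway step. Fdps stands above all other members, and the exporters Abca1 and Abcg1 are the lowest.

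C435A cells were compared with wild-type cells as the mean of both treatments, which uses all 6 libraries of each line. Sqle and Idi1 were lower in C435A cells and were the 2 members that passed the test, Sqle at 0.702 and Idi1 at 0.68 of the wild-type level. Most other enzymes lay on the same side without passing. Of the 20 enzymes 17 had a negative and 3 a positive difference, beside 49.9% positive among all genes tested. The median log2 difference was -0.16 beside -0.001 over all genes tested. In that comparison the quasi-likelihood test of edgeR, adjusted by Benjamini-Hochberg, called 493 of 17590 genes at 0.05, which is 2.8%, with 332 higher and 161 lower in C435A cells, the lower ones being 0.915% of genes tested. The 2 called members are 6.45% of the 31. DESeq2 called 8 members and 6.75% of all genes. At an unadjusted p under 0.05, 10 members differed, all lower in C435A cells, beside 18.1% of all genes in either direction and 8.21% of all genes with lower values. These are bulk libraries, so fewer cells of a type and less RNA per cell cannot be told apart.

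Sqle encodes squalene epoxidase, a rate-limiting enzyme that makes the first oxygenated intermediate of the sterol branch (chr15:59186926-59203041 in the deposited table). It had 4.68, 5.24 and 5.07 FPKM in C435A IFNα libraries and 5.18, 4.75 and 4.52 in C435A controls, against 9.97, 6.92 and 6.75 in wild-type IFNα libraries and 6.22, 6.71 and 8.64 in wild-type controls. The C435A libraries lay close together, all of them below every wild-type library. In CPM scaled by TMM they spanned 27.6 to 31.1, against 36.7 to 51.1 in wild-type libraries. In edgeR the log2 difference came to -0.51 ± 0.0884 (SE) with a 95% interval of -0.7 to -0.321 and an adjusted p of 0.0081 by edgeR. Sqle was the single member whose 6 C435A libraries were all below the 6 wild-type libraries in CPM, a pattern that 0.984% of all genes tested showed. In FPKM the same held for Sqle, Idi1 and Lbr, beside 1.69% of all genes.

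Idi1 encodes isopentenyl-diphosphate isomerase, which makes the starter unit of isoprenoid chains (chr13:8935537-8942487 in the deposited table). It stood at 5.74, 5.35 and 4.06 FPKM in C435A IFNα libraries and 5.64, 5.99 and 5.43 in C435A controls, against 8.78, 9.77 and 8.17 in wild-type IFNα libraries and 10.2, 7.05 and 6.42 in wild-type controls. The lines did not overlap in FPKM, but in CPM the highest C435A library, at 22.8, was above the lowest wild-type library, at 21.2. Its log2 difference stood at -0.56 ± 0.134, with an adjusted p of 0.042 by edgeR. Without wild-type control 3 the adjusted p was 0.0206, and without any 1 of the other 11 libraries it lay between 0.0516 and 0.107, so the call held in 1 of 12 such fits. The Sqle call held in all 12, with a log2 difference of -0.552 to -0.455 and an adjusted p of at most 0.033.

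**Figure D2:**
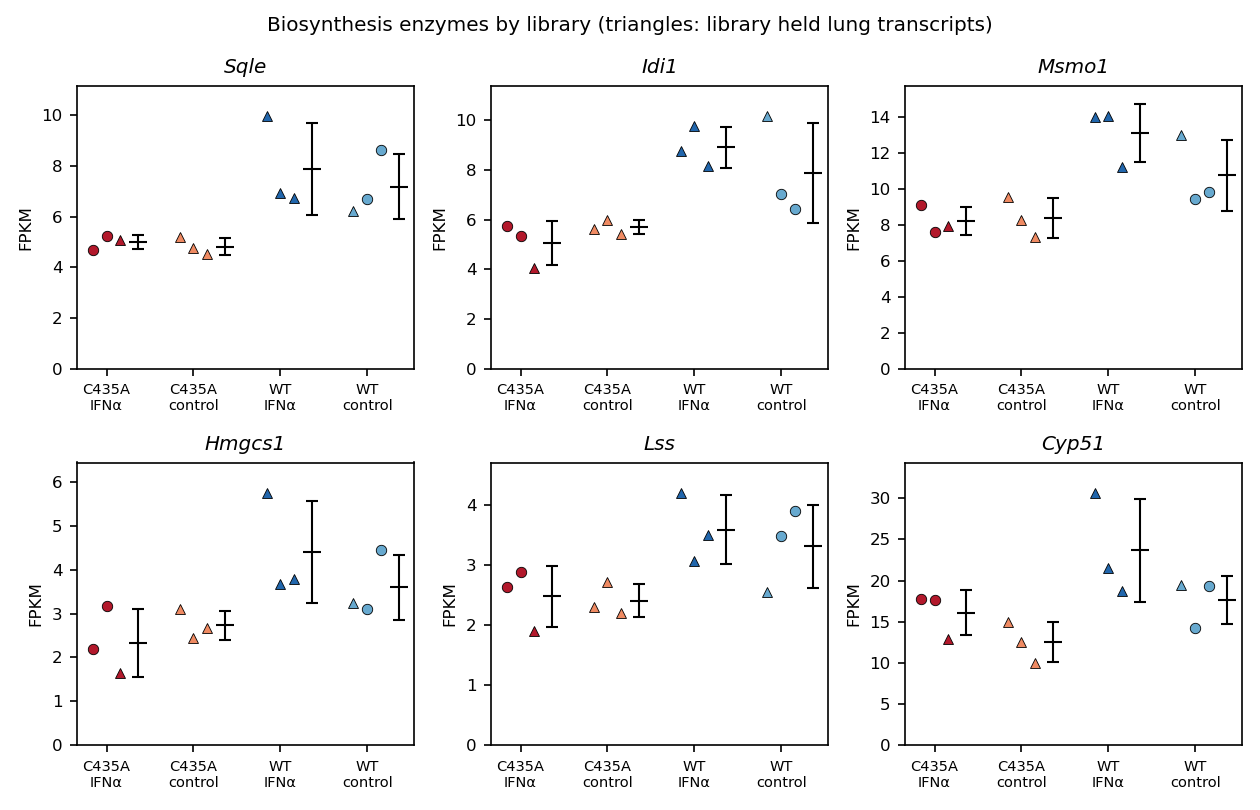
FPKM of 6 enzymes in each library, groups from left to right C435A IFNα, C435A control, WT IFNα and WT control, with points for libraries, triangles for those with lung transcripts, and black marks for the mean ± SD (n = 3). The 6 C435A libraries of Sqle lie at or below 5.24 FPKM and the 6 wild-type libraries at or above 6.22 FPKM.

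A further 6 enzymes had an unadjusted p under 0.05 in the same comparison. Hmgcs1, the synthase that commits acetyl units to the mevalonate arm, had 2.19, 3.17 and 1.65 FPKM in C435A IFNα libraries and 3.10, 2.44 and 2.67 in C435A controls, against 5.76, 3.68 and 3.79 in wild-type IFNα libraries and 3.24, 3.10 and 4.46 in wild-type controls. With IFNα the lines did not overlap in FPKM, and 12.1% of all genes tested were likewise lower in C435A cells. Without IFNα, C435A control 1 of Hmgcs1 matched the lowest wild-type control. The log2 difference over both treatments was -0.55 ± 0.147, with an adjusted p of 0.0623 by edgeR. Msmo1, the monooxygenase that starts the removal of methyl groups from lanosterol products, had 9.11, 7.60 and 7.95 FPKM in C435A IFNα libraries and 9.56, 8.26 and 7.33 in C435A controls, against 14.0, 14.0 and 11.2 in wild-type IFNα libraries and 13.0, 9.43 and 9.81 in wild-type controls. The wild-type IFNα libraries and wild-type control 1 were high, and C435A control 1 was just above the lowest wild-type control. Its log2 difference was -0.42 ± 0.111, with an adjusted p of 0.0592.

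Lss, the cyclase that folds squalene epoxide into lanosterol, had 2.63, 2.89 and 1.902 FPKM in C435A IFNα libraries and 2.29, 2.71 and 2.20 in C435A controls, against 4.2, 3.07 and 3.50 in wild-type IFNα libraries and 2.55, 3.49 and 3.90 in wild-type controls. Wild-type control 1 was the one wild-type library inside the C435A range. The fitted log2 difference was -0.40 ± 0.114 with an adjusted p of 0.0805 by edgeR. Cyp51, the lanosterol demethylase, had 17.7, 17.6 and 13.0 FPKM in C435A IFNα libraries and 15.0, 12.6 and 10.03 in C435A controls, against 30.7, 21.6 and 18.8 in wild-type IFNα libraries and 19.4, 14.2 and 19.3 in wild-type controls. Wild-type IFNα replicate 1 stood far above the rest, and wild-type control 2 lay inside the C435A range. The log2 difference was -0.42 ± 0.127 with an adjusted p of 0.0941.

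Lbr, a sterol reductase that is also the lamin B receptor of the inner nuclear membrane, had 1.94, 2.36 and 1.29 FPKM in C435A IFNα libraries and 1.48, 2.02 and 1.96 in C435A controls, against 4.02, 2.63 and 2.49 in wild-type IFNα libraries and 2.63, 2.40 and 2.59 in wild-type controls. The lines did not overlap in FPKM but were separated by little, from 2.36 to 2.40, and in CPM they met at 11.8 and 11.6. In edgeR the log2 difference came to -0.49 ± 0.147 with an adjusted p of 0.0939 by edgeR. Hsd17b7, the keto-sterol reductase of the demethylation complex, had 1.66, 2.10 and 1.45 FPKM in C435A IFNα libraries and 2.02, 1.98 and 2.23 in C435A controls, against 3.03, 1.79 and 2.01 in wild-type IFNα libraries and 3.02, 3.17 and 3.80 in wild-type controls. The 3 wild-type controls and wild-type IFNα replicate 1 were the high libraries. The log2 difference between the lines was -0.43 ± 0.119 with an adjusted p of 0.0727.

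The other 12 enzymes did not reach an unadjusted p of 0.05 between the lines. Fdft1, the squalene synthase, differed by -0.20 ± 0.097 on the log2 scale (adjusted p 0.286 by edgeR). Its annotated span overlaps by 774 bases the more abundant Ctsb on the opposite strand. Without stated strand use, reads of Fdft1 within those bases cannot be separated from those of Ctsb. Ebp differed by -0.17 ± 0.0892, Sc5d, a sterol desaturase, by -0.15 ± 0.111, Nsdhl, a decarboxylating dehydrogenase, by -0.14 ± 0.105, and Dhcr7, the reductase of the last step, by -0.13 ± 0.0842. The mevalonate arm apart from Hmgcs1 lay near 0, with Mvd at -0.11, the thiolase Acat2 at -0.08, and the kinases Pmvk at 0.05 and Mvk at 0.00. Acat2 has a close copy, Acat3, so its counts are uncertain. Fdps had a positive difference of 0.12 ± 0.0894, Ggps1, the geranylgeranyl diphosphate synthase, one of -0.07 ± 0.124, and the sterol reductase Tm7sf2 one of -0.01 ± 0.135. By step, the 12 genes from squalene to cholesterol all had negative differences with a median of -0.301 and 6 of them at an unadjusted p under 0.05, the 5 of the mevalonate arm had a median of -0.081, and the 3 isoprenoid genes one of -0.07.

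Scaling bears on these medians. Scaled by library totals in place of TMM, the median of the 20 enzymes was -0.247 and that of all genes tested -0.088, and the split of all calls between the lines was 169 higher and 193 lower in C435A cells. On log2(FPKM + 1) with limma the medians were -0.235 and -0.087, with 197 calls higher and 200 lower. Sqle and Idi1 were lower and called under each of these. The deposited FPKM are not TMM-scaled. The highest TMM factors were those of wild-type IFNα 1 at 1.126 and wild-type control 3 at 1.104. In CPM scaled by TMM, these 2 libraries were the highest of their group for 11 and 9 of the 20 enzymes and the lowest for 7 and 4. C435A control 1, with a factor of 0.964, was also the highest of its group for 11. C435A IFNα 1 and 2, with factors of 0.9631 and 0.9882, were the highest for 8 each. A link between factor and enzyme level was not tested.

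**Figure D3:**
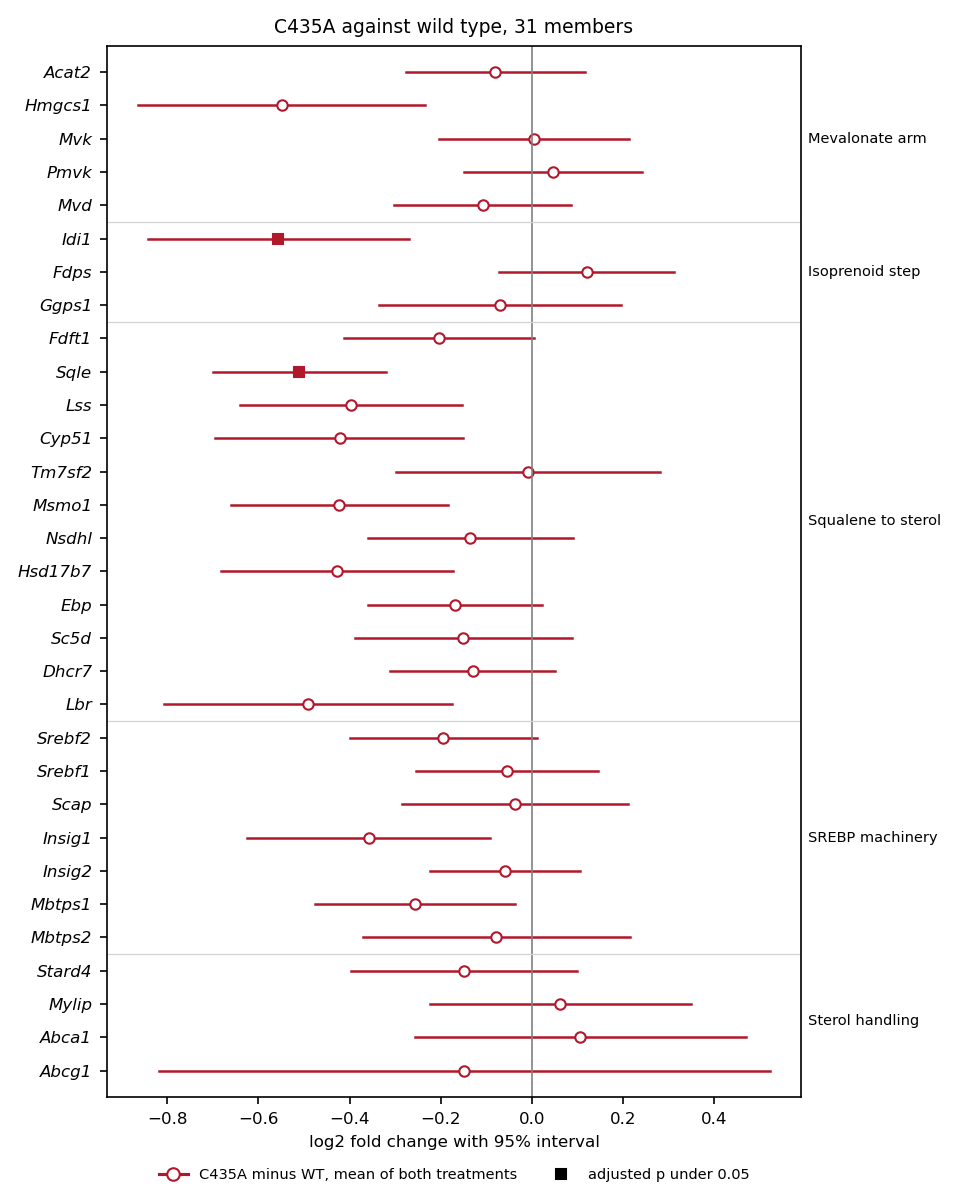
Log2 fold change of C435A minus wild type with 95% interval for the 31 genes, from edgeR over all 12 libraries and grouped by pathway step, with filled squares for an adjusted p under 0.05. Sqle and Idi1 are the filled squares, and the 12 genes from squalene to sterol all lie left of 0.

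Among the SREBP machinery, 7 of 7 genes had a negative difference between the lines, with a median of -0.078. None passed edgeR's test after adjustment, and 49.9% of all genes tested had a positive difference. The signs of Srebf1 and Scap were not stable, as the alternative fits reached 0.00989 and 0.0455 for them. Insig1, which retains Scap in the endoplasmic reticulum, had 5.00, 6.84 and 5.01 FPKM in C435A IFNα libraries and 5.61, 5.58 and 5.60 in C435A controls, against 10.1, 6.28 and 6.65 in wild-type IFNα libraries and 6.15, 6.96 and 10.4 in wild-type controls. Wild-type IFNα 1 and wild-type control 3 were high, and the other 4 wild-type libraries were close to C435A IFNα 2. Its log2 difference stood at -0.36 ± 0.124 with an adjusted p of 0.143. Mbtps1, the protease that makes the first cut of SREBP precursors, had 2.16, 2.20 and 2.18 FPKM in C435A IFNα libraries and 1.76, 1.91 and 1.94 in C435A controls, against 3.51, 2.38 and 2.66 in wild-type IFNα libraries and 1.84, 2.18 and 3.10 in wild-type controls. The lines overlapped in the controls and not with IFNα, where 12.1% of all genes tested were likewise lower in FPKM. The fitted log2 difference was -0.26 ± 0.102 with an adjusted p of 0.197. For Srebf2 it was -0.20 ± 0.0958 (adjusted p 0.303), and for Srebf1, Scap, Insig2 and Mbtps2 it lay between -0.08 and -0.04.

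The lines were also compared within each treatment, with no member passing edgeR's test in either. limma on log2(FPKM + 1) called 4 members in C435A against wild-type cells as the mean of both treatments, beside 3.93% of all genes, and 0 members in each of the other 6 comparisons. In those 6 it called 0.555% of all genes between the lines with IFNα, 0.347% between the lines in controls, 0.258% for IFNα as the mean of both lines, 0.0297% for IFNα in each line and 0% in the interaction. With IFNα, C435A cells against wild-type cells gave 0 called members, 8 members at an unadjusted p under 0.05, all lower, and 0.597% of all genes called. At that unadjusted p, 13.7% of all genes differed in either direction and 6.15% were lower. The 8 were Hmgcs1 at -0.81 ± 0.208, Idi1 at -0.73 ± 0.189, Lbr at -0.60, Msmo1 at -0.58 ± 0.157, Sqle at -0.55 ± 0.125, Stard4 at -0.47, Cyp51 at -0.45 and Lss at -0.44, with adjusted p-values of 0.0664 (Sqle) to 0.277 (Cyp51). DESeq2 called Hmgcs1, Idi1, Sqle and Msmo1 here, beside 3.41% of all genes. The count of 8 became 5 without wild-type IFNα 1 and 4 without C435A IFNα 3. It rose to 11 without wild-type IFNα 2 or C435A IFNα 2, to 10 without wild-type control 3 and to 9 without wild-type control 1. Of the 3 C435A IFNα libraries, replicate 3 was the lowest in CPM for 14 of 20 enzymes. Without it Hmgcs1 stood at -0.624 and Sqle at -0.573. It holds lung transcripts and the smallest library total, and the part of the total was not tested. With lung transcripts as a term in the fit, 13 members had an unadjusted p under 0.05, the median of the 20 enzymes was -0.372 against -0.176 without the term, Hmgcs1 stood at -1.09 and Lss at -0.771 with an adjusted p of 0.0347.

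In the controls, C435A cells against wild-type cells gave 0 called members in edgeR and 1, Sqle, in DESeq2. Of all genes tested, edgeR called 0.165% and DESeq2 1.37%, and 10.7% had an unadjusted p under 0.05. Among the members 5 had such a p, all lower: Hsd17b7 at -0.57 ± 0.168, Sqle at -0.47 ± 0.125, Cyp51 at -0.39, Lss at -0.36 and Srebf2 at -0.29 ± 0.136. Their adjusted p-values lay between 0.201 and 0.463. The count of 5 became 3 without C435A control 1, wild-type IFNα 3 or wild-type control 2, 2 without C435A control 3 and 9 without C435A IFNα 3. All 3 C435A controls had smaller library totals than all wild-type libraries, so library total and line cannot be told apart within the controls. With lung transcripts as a term, Lss stood at -0.0283 in controls with an adjusted p of 0.978, Cyp51 at -0.372 and Sqle at -0.422.

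IFNα against control was tested in each line and as the mean of both lines. No member passed edgeR's test in any of these 3 comparisons. Insig2 came nearest, at 0.756 of the control level as the mean of both lines. Srebf2 stood at 1.33 and Srebf1 at 1.31 times the control level, both at an unadjusted p under 0.05 only. As the mean of both lines, 8 members had an unadjusted p under 0.05, 6 higher and 2 lower with IFNα, beside 10.2% of all genes, and 0.171% of all genes were called. DESeq2 called 5 members there, namely Insig2 and Hsd17b7 as lower and Srebf2, Srebf1 and Dhcr7 as higher, beside 1.52% of all genes. The median over the 31 members was 0.106, with 24 positive and 7 negative, beside 0.002 over all genes tested.

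Insig2 encodes the second Scap-retaining protein, whose gene, unlike that of Insig1, is not a classical SREBP target (chr1:121232082-121260318 in the deposited table). It had 5.76, 5.81 and 4.59 FPKM in C435A IFNα libraries against 7.87, 7.59 and 7.51 in C435A controls, and 7.38, 6.11 and 6.19 in wild-type IFNα libraries against 7.49, 7.73 and 8.29 in wild-type controls. All 6 IFNα libraries were below all 6 controls, in FPKM and in CPM, where they spanned 17.4 to 23.8 against 27.1 to 29.7. In CPM, 0.347% of all genes tested showed such a separation downwards and 0.273% upwards, and no member showed it upwards. The log2 difference was -0.40 ± 0.0771, with an unadjusted p of 0.000126 and an adjusted p of 0.0582 by edgeR. It was -0.53 ± 0.109 in C435A cells and -0.27 ± 0.109 in wild-type cells, with adjusted p-values of 0.189 and 0.815. With lung transcripts as a term in the fit, the mean of both lines gave -0.407 with an adjusted p of 0.0553.

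Srebf2 had 17.7, 15.96 and 21.9 FPKM in C435A IFNα libraries against 11.5, 14.3 and 12.6 in C435A controls, and 23.8, 19.5 and 20.4 in wild-type IFNα libraries against 14.2, 17.2 and 19.3 in wild-type controls. The IFNα libraries were above the controls within each line. In FPKM, 9.75% of all genes tested showed this in the C435A line and 4.77% in the wild type. For Srebf2, wild-type controls 2 and 3 overlapped the C435A IFNα libraries. In edgeR the log2 difference came to 0.41 ± 0.0959 as the mean of both lines, with an adjusted p of 0.124 by edgeR. Srebf1, the related factor that drives fatty acid genes, had 8.86, 6.87 and 9.25 FPKM in C435A IFNα libraries against 5.45, 6.74 and 5.99 in C435A controls, and 9.55, 8.37 and 8.87 in wild-type IFNα libraries against 6.26, 7.35 and 7.38 in wild-type controls. Within each line the IFNα libraries were above the controls in FPKM, by a small gap in the C435A line. In CPM the C435A groups of Srebf1 overlapped. Its log2 difference stood at 0.39 ± 0.0933 with an adjusted p of 0.135.

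Scap had 16.1, 12.7 and 21.1 FPKM in C435A IFNα libraries against 10.7, 13.7 and 11.98 in C435A controls, and 17.7, 16.1 and 15.9 in wild-type IFNα libraries against 13.2, 15.9 and 14.9 in wild-type controls. C435A IFNα 3 was the highest of all 12 libraries, and without it the log2 difference in the C435A line was 0.222, against 0.44 ± 0.164 with it. As the mean of both lines the difference was 0.30 ± 0.116 with an adjusted p of 0.389 by edgeR. Mbtps2, the protease of the second cut, was low throughout, at 0.611, 0.792 and 0.712 FPKM in C435A IFNα libraries against 0.444, 0.676 and 0.415 in C435A controls, and 0.830, 0.636 and 0.659 in wild-type IFNα libraries against 0.719, 0.557 and 0.680 in wild-type controls. The groups overlapped in both lines. The fitted log2 difference was 0.44 ± 0.194 in C435A cells and 0.10 ± 0.193 in wild-type cells, and part of its span is shared with Yy2 on the same strand. Mbtps1 had 0.22 ± 0.102 as the mean of both lines with an adjusted p of 0.483, and Insig1 had -0.03 ± 0.124.

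**Figure D4:**
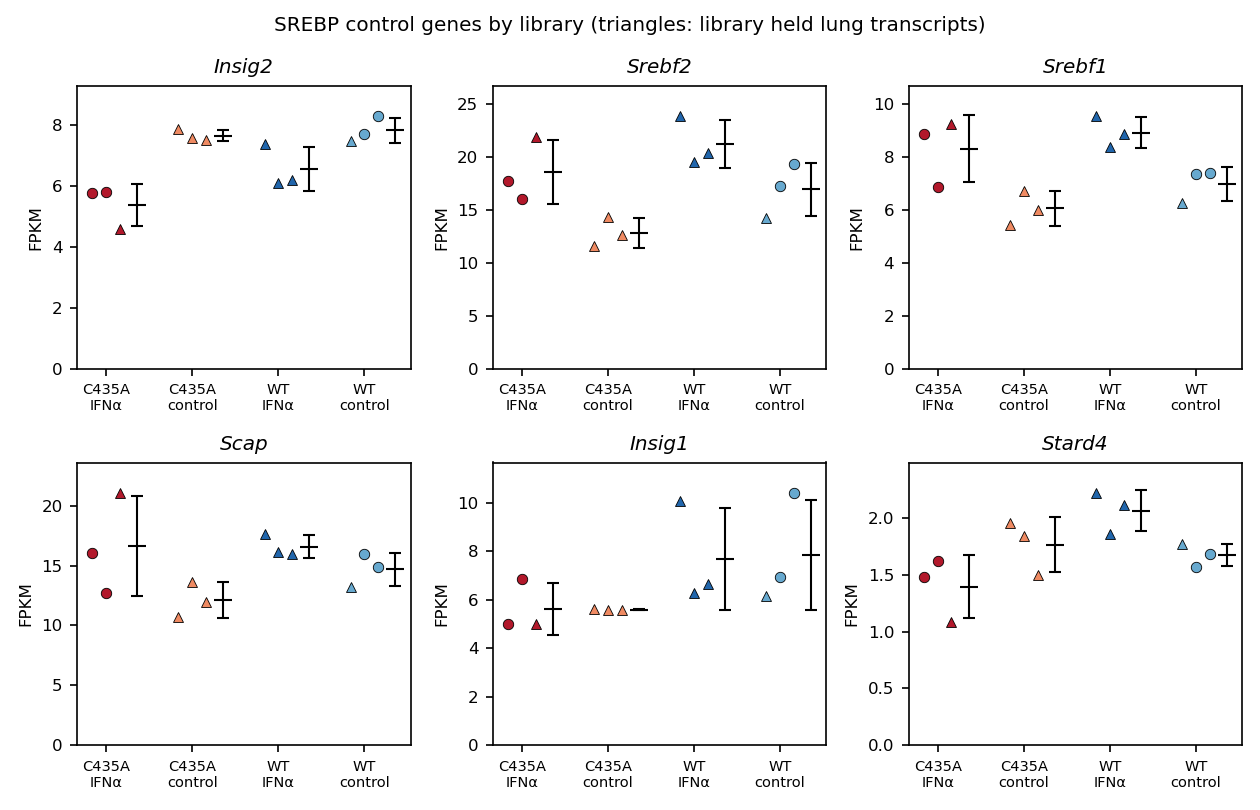
FPKM of 6 control and sterol-handling genes in each library, with groups and symbols as in the plot of enzymes by library and black marks for the mean ± SD (n = 3). Insig2 lies at or below 7.38 FPKM in all 6 IFNα libraries and at or above 7.49 FPKM in all 6 controls.

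Of the 20 enzymes, 16 had a positive and 4 a negative difference between IFNα and control as the mean of both lines, with a median of 0.089. edgeR called 0 of them, with 3 at an unadjusted p under 0.05, and DESeq2 called Dhcr7 and Hsd17b7. Dhcr7 had 9.02, 10.4 and 11.6 FPKM in C435A IFNα libraries against 7.36, 7.90 and 8.23 in C435A controls, and 13.4, 9.87 and 11.7 in wild-type IFNα libraries against 8.58, 9.47 and 10.7 in wild-type controls. The C435A groups did not overlap, and the wild-type groups overlapped in FPKM but not in CPM. In CPM, 7.97% of all genes tested were separated upwards in the C435A line and 5.48% in the wild type. The log2 difference of Dhcr7 as the mean of both lines was 0.32 ± 0.0842 with an adjusted p of 0.176. Hsd17b7, whose levels are given above, ran the other way at -0.43 ± 0.119 with an adjusted p of 0.207, and Cyp51 stood at 0.37 ± 0.127 with one of 0.317.

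Within the C435A line IFNα gave 0 called members in edgeR and 2, Insig2 and Srebf2, in DESeq2, with 9 members at an unadjusted p under 0.05, 7 higher and 2 lower. Of all genes edgeR called 0.00569% and DESeq2 0.826%, and 10.3% had such a p. Beside Insig2, Srebf2, Srebf1, Dhcr7, Scap and Mbtps2, these were Tm7sf2, Mvk and Stard4. Tm7sf2 had 2.44, 1.83 and 1.49 FPKM in C435A IFNα libraries against 1.49, 1.14 and 1.42 in C435A controls, and 1.66, 1.84 and 1.87 in wild-type IFNα libraries against 1.45, 1.79 and 1.80 in wild-type controls. C435A IFNα 1 was high, and in FPKM replicate 3 was level with the highest C435A control. In CPM all C435A IFNα libraries of Tm7sf2 were above all C435A controls, as in 7.97% of all genes tested. Mvk, the mevalonate kinase, had 21.4, 20.4 and 27.6 FPKM in C435A IFNα libraries against 17.0, 18.4 and 19.5 in C435A controls, and 21.7, 20.8 and 22.0 in wild-type IFNα libraries against 18.7, 24.4 and 24.3 in wild-type controls. C435A IFNα 3 was high, and without it the C435A difference was 0.159 against 0.32 ± 0.138 with it. Tm7sf2 differed by 0.48 ± 0.192 in the C435A line, by 0.269 without C435A IFNα 1 and by 0.24 with lung transcripts as a term.

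Within the wild type IFNα gave 0 called members in edgeR and 0 in DESeq2, with 6 members at an unadjusted p under 0.05, 4 higher and 2 lower. Of all genes edgeR called 0.0227% and DESeq2 0.37%, and 5.44% had such a p. The count of 6 became 3 when IFNα replicate 1, IFNα replicate 2 or control replicate 2 of this line was left out, and 2 without its IFNα replicate 3. The 4 higher members were Cyp51 at 0.40 ± 0.179, Srebf1 at 0.34 ± 0.132, Srebf2 at 0.31 ± 0.135 and Dhcr7 at 0.26 ± 0.119, and the lower ones were Hsd17b7 at -0.57 ± 0.168 and Insig2. Their adjusted p-values lay between 0.576 and 0.909. Lung transcripts and IFNα moved together in this line and oppositely in the C435A line. With a term for lung transcripts, Srebf2 had 0.56 in C435A cells and 0.253 in wild-type cells. Insig2 had -0.636 in C435A cells and -0.177 in wild-type cells, and none of these 4 values had an adjusted p below 0.222.

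**Figure D5:**
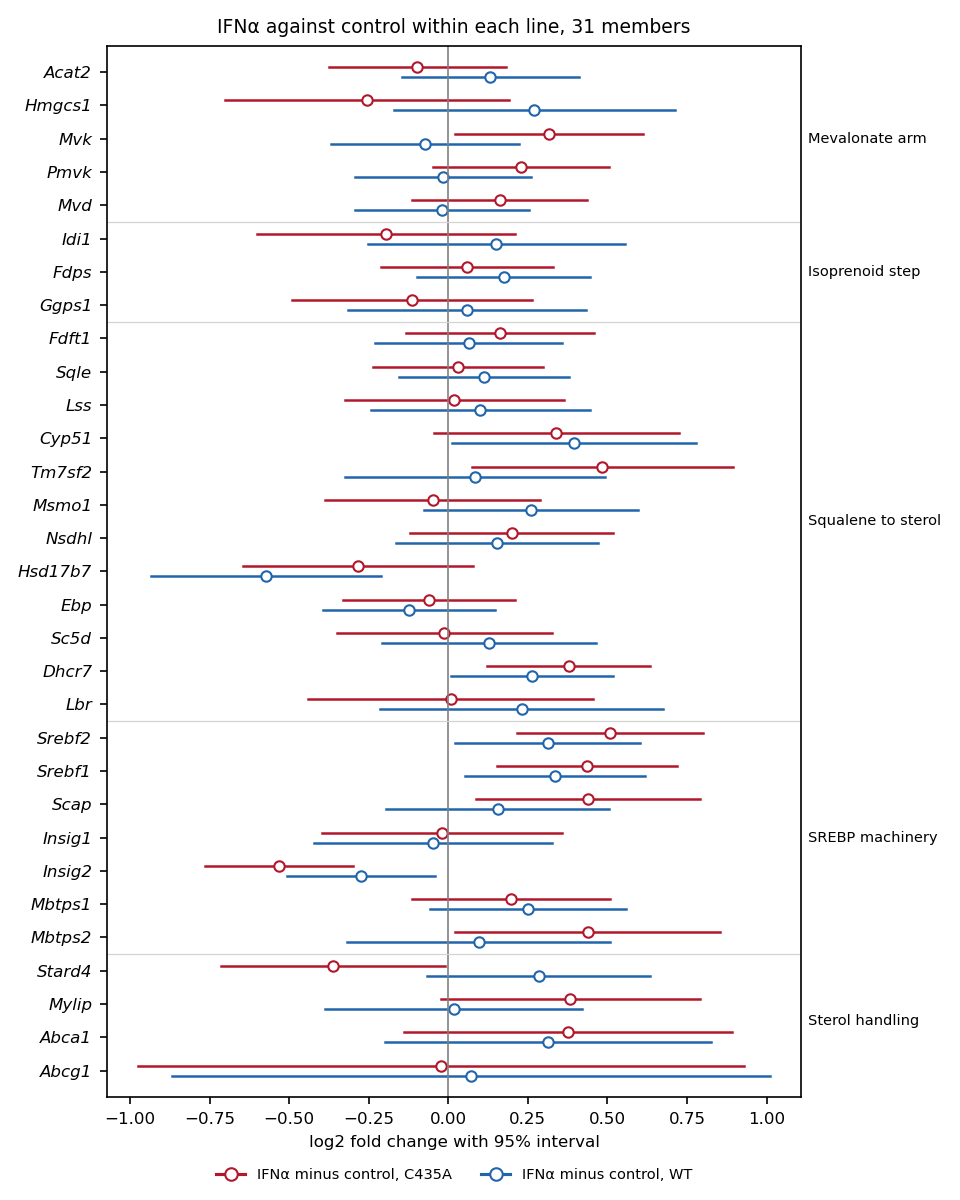
Log2 fold change of IFNα minus control with 95% interval for the 31 genes, from edgeR, in C435A cells (red, upper) and wild-type cells (blue, lower). No interval belongs to a gene with an adjusted p under 0.05, and Insig2 lies left of 0 in both lines.

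Whether the IFNα response differed between the lines was tested as the interaction. edgeR called 0 of 17590 genes, which is 0%, and 5.17% of all genes had an unadjusted p under 0.05. DESeq2 called 0 members and 0.0798% of all genes. Stard4, a carrier that moves cholesterol between membranes, was the 1 member with an unadjusted p under 0.05 over all 12 libraries. Without 1 library there were 5 such members without wild-type control 1, 4 without C435A IFNα 2, 2 each without wild-type IFNα 1 and C435A control 2, and 1 in the other 8 fits. With lung transcripts as a term there were 4. It had 1.49, 1.62 and 1.08 FPKM in C435A IFNα libraries against 1.96, 1.85 and 1.499 in C435A controls, and 2.23, 1.87 and 2.12 in wild-type IFNα libraries against 1.77, 1.58 and 1.68 in wild-type controls. It lay above the controls in all wild-type IFNα libraries, as 4.77% of all genes tested did in FPKM. The C435A groups of Stard4 overlapped. IFNα differed from control by -0.36 in C435A cells and by 0.28 in wild-type cells on the log2 scale. The difference of responses was -0.65 ± 0.231 on the log2 scale with an unadjusted p of 0.0142 and an adjusted p of 0.916. Precision sets the limit here, since the 95% interval of the interaction lay within 2-fold for 28 of 31 members and within 1.5-fold for 11.

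The remaining sterol-handling genes did not reach an unadjusted p of 0.05 in any of the 7 comparisons. Mylip, a ubiquitin ligase that lowers lipoprotein uptake, ranged over 0.931 to 1.83 FPKM in all libraries and differed by 0.06 ± 0.133 between the lines. Abca1 ranged over 0.255 to 0.539 FPKM and differed by 0.34 ± 0.17 with IFNα as the mean of both lines (adjusted p 0.518 by edgeR). Abcg1, at 39 to 109 counts per library, differed by -0.15 ± 0.312 between the lines, and its interval of -0.818 to 0.521 is the widest of the members in that comparison.

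Other genes of sterol and lipid metabolism were followed in 4 lists. Of 13 fatty acid genes driven by SREBP1, 1 was called in C435A against wild-type cells, Scd2, a desaturase, at -0.39 ± 0.0949 with an adjusted p of 0.0457, beside 2.8% of all genes called, and 12 of the 13 had a negative difference with a median of -0.178. None of the 13 was called with IFNα as the mean of both lines, beside 0.171% of all genes, and 7 had an unadjusted p under 0.05 there, all higher, beside 10.2% of all genes in either direction. Among 8 genes of sterol-regulated degradation in the endoplasmic reticulum, Vcp, the segregase that extracts ubiquitinated proteins, was lower in C435A cells at -0.43 ± 0.0816 (adjusted p 0.0131). Of 13 tested oxysterol, LXR and storage genes, Stard3, a late endosomal cholesterol carrier, was higher in C435A cells at 0.50 ± 0.0909 (adjusted p 0.0111). With IFNα it had 19.6 ± 1.94 FPKM in C435A libraries against 13 ± 0.746 in wild-type libraries (SD, n = 3 each). In controls it had 14.1 ± 1.36 against 12.3 ± 1.38. Hsd3b7, an enzyme of bile acid and oxysterol metabolism, was lower with IFNα at -0.59 ± 0.0971 (adjusted p 0.0356), with 2.77 ± 0.302 FPKM in C435A IFNα libraries against 4.08 ± 0.161 in C435A controls and 3.09 ± 0.461 in wild-type IFNα libraries against 4.61 ± 0.386 in wild-type controls (SD, n = 3 each). Ch25h, the interferon-induced cholesterol hydroxylase of macrophages, had 0 to 29 counts per library and passed no comparison, with a smallest adjusted p of 0.643. Of 12 genes of the prenyl and dolichol branch 0 were called by edgeR in any comparison, and 2 had an unadjusted p under 0.05 between the lines, beside 18.1% of all genes. These were Nus1, a subunit of the dolichol-forming transferase, at -0.34 ± 0.111 between the lines (adjusted p 0.123) and Rabggtb, a Rab prenyltransferase subunit, at 0.22 ± 0.1 (adjusted p 0.257).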

How the data were processed

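RNA of 12 B16F10 libraries, 3 in each of 4 groups, was poly(A)-selected, made into dUTP libraries with molecular identifiers and read as pairs, per the labels' protocols. Per the submitters' processing notes, the tools included StringTie 1.3.4d, HISAT2 2.0.4, edgeR, DESeq2, cutadapt 1.9 and UMI-tools, with no role given, and the build was GRCm38. How fragments were counted, and whether strand or identifiers were used, is not given in the sources used here.

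The authors deposited whole-number counts, not scaled for depth, and FPKM, scaled for length and depth, in 1 table, per the file headers. Of the deposited counts from 1 to 30, 33.6% are multiples of 4, beside 23.3% if all whole numbers were alike, and how this arose was not tested. The 31 members are all in the GRCm38 annotation used here by identifier, but 1 of 31 gene starts is equal, so gene coordinates are given as deposited and promoter coordinates as in RefSeq. Replicates of a group differed with an SD of the log2 ratio of 0.187 to 0.409 over 6318 genes, so none was 1 library deposited under 2 names.

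Counts were fitted with edgeR 4.0.16 in R 4.3.3 (TMM, default filter on low counts, quasi-likelihood, 4 group means over all 12 libraries, no covariate), and 7 comparisons were tested, two-sided, with Benjamini-Hochberg adjustment over 17590 genes and a threshold of 0.05. Differences are log2 fold changes ± SE (n = 3 libraries per group), with SE derived from the test statistic. The common biological coefficient of variation was 28.9%. Libraries were said to hold lung transcripts above a summed 5 CPM of 9 markers.

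Alternatives were DESeq2 1.42.0, its size factors, library totals, other filters, robust estimation, limma 3.58.1 on log2(FPKM + 1) and log2(FPKM + 0.1) for genes that reach an FPKM of 1 in 3 or more libraries, only the groups compared, a replicate block, a lung term and leaving out each library. The code was tested on simulated data. Values of every library are given for members with an unadjusted p under 0.05 in any comparison, while of each other list the genes that passed, or the 2 with the smallest p, are given by their log2 difference. The members and lists were chosen with earlier results of these data known. Comparisons that share control libraries are not independent.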

Additional observations from a re-analysis of the deposited data

Results flagged for a closer look

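Insig2 stood out because its groups lay on opposite sides of each other in the 2 treatments. In CPM, all C435A IFNα libraries were below all wild-type IFNα libraries and all C435A controls were above all wild-type controls. By the same criterion 8.52% of all genes tested were lower in C435A cells with IFNα and 12.3% were higher in C435A controls. In FPKM the controls overlapped. The difference of the IFNα responses between the lines was -0.2574 on the log2 scale with an adjusted p of 0.916 by edgeR, so it did not pass the test.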

How the results depend on the processing

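Of 4835 member values under the alternatives, 4784 kept their side of the threshold, 39 gained a call, 12 lost one and 0 called values changed sign. In C435A against wild-type cells as the mean of both treatments, where 2 members were called, DESeq2 called 8, the lung term 5, no filter 1, and 4 each were called with a mean FPKM of at least 1, robust estimation, limma on log2(FPKM + 1), limma on log2(FPKM + 0.1) and the replicate block. No label says that replicate numbers pair the samples. Deviations from group means of same-numbered libraries correlated at -0.447 to 0.285 over 7276 genes. Differently numbered libraries were not compared, so these values cannot settle whether the numbers pair samples. The replicate block moved the count of called members between the lines from 2 to 4 (Idi1, Sqle, Cyp51 and Msmo1) and no other count of members. Sqle was among those called in all 22 alternatives and Idi1 in 10 of 22. Where no member was called, DESeq2 called 2 for IFNα in C435A cells, 1 for C435A against wild-type controls, 4 for the same with IFNα and 5 for IFNα as the mean of both lines. A mean FPKM of at least 1 called 1 with IFNα between the lines (Sqle) and 1 for IFNα as the mean of both lines (Insig2), which DESeq2 size factors also called (1), and the lung term called 1 with IFNα between the lines (Lss). The cause of these moves was not tested.

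Leaving out 1 library gave 1 to 2 called members for the lines over both treatments, 0 to 1 for the lines with IFNα (Idi1, without wild-type control 1) and 0 to 0 in the other 5 comparisons. Over all genes, the 493 calls between the lines became 199 to 550 without 1 library and 281 to 1185 under the other alternatives, the 105 with IFNα 21 to 112 and 14 to 599, the 29 in controls 11 to 58 and 17 to 240, and the 30 for IFNα as the mean of both lines 4 to 44 and 7 to 267. For IFNα alone, 4 calls in the wild type became 0 to 7 and 1 to 65, and 1 in C435A cells 0 to 2 and 0 to 145, with 0 in the interaction becoming 0 to 0 and 0 to 14. With 3 libraries per group, the 95% interval between the lines lay within 1.5-fold for 21 of 31 members.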

Other observations

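Nr1h3, the LXRα gene, was chosen after its values were seen and passed no comparison. It had 0.517, 0.448 and 0.906 FPKM in C435A IFNα libraries against 0.184, 0.205 and 0.270 in C435A controls, and 0.226, 0.323 and 0.402 in wild-type IFNα libraries against 0.237, 0.153 and 0.125 in wild-type controls. The C435A groups did not overlap, an upward separation that 9.75% of all genes tested showed in FPKM. The wild-type groups overlapped through wild-type IFNα 1 and wild-type control 1. The log2 difference of IFNα and control as the mean of both lines was 1.15 ± 0.292, with an adjusted p of 0.164 by edgeR.

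The FPKM of the 20 enzymes summed to 432.1, 433.3 and 358.9 in C435A IFNα libraries and 397.8, 377.1 and 362.3 in C435A controls, against 473.7, 437.4 and 445 in wild-type IFNα libraries and 403.7, 398.8 and 439.4 in wild-type controls. Fdps alone made up a large share of each sum. All wild-type IFNα libraries were above all C435A libraries, the nearest at 437.4 and 433.3, and wild-type controls 1 and 2 lay inside the C435A range. The sums are not TMM-scaled and were not tested. On log2(FPKM + 1), the median difference of all genes between the lines with IFNα was itself -0.086.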
